A study of Mus musculus with 4 samples.

Results

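RNA from mouse oocytes cultured with the high dose of tubastatin A (TubA-20) was set against RNA from oocytes that had matured without it (MII). These are 2 of the 4 libraries of the study, and the comparison was made for all 21957 genes of its table, each as the log2 ratio of FPKM + 1 with TubA-20 over MII. FPKM is the number of sequenced fragments of a gene scaled to the length of its transcript and to the size of the library.

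The study asked how tubastatin A (TubA), a small molecule made to inhibit the deacetylase HDAC6, alters the transcripts of oocytes that fail to complete meiotic maturation. Oocytes at the germinal vesicle stage (GV) came from B6D2F1 females, a hybrid of C57BL/6 and DBA, that were 6 to 8 weeks old and had been primed with gonadotropin, and they were freed of cumulus cells. The GV library was made from oocytes at the start, and the other 3 from oocytes kept for 12 h in M16 medium without TubA (MII) or with 10 μM (TubA-10) or 20 μM (TubA-20). TubA was dissolved in DMSO, and solvent is not named for the culture without TubA.

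Each condition was 1 library from pooled oocytes, so no difference given here could be set against a spread between replicates, and none carries a p-value or an error. MII oocytes were kept only if they had extruded a polar body, whereas the study describes TubA-20 oocytes as failing to pass the first metaphase. The drug, the stage reached and the choice of oocytes therefore cannot be told apart in this comparison. The labels contradict themselves on dose, since the titles name 10 and 20 μM but the treatment entries name 20 μM for the library titled 10 μM and 11 μM for the library titled 20 μM. The doses of the titles are used. The title of MII speaks of an embryo, although these were oocytes. In pooled oocytes, fewer oocytes with a transcript and less of it in each oocyte cannot be told apart, and in RNA selected by its poly(A) tail a lost transcript and a shortened tail cannot be told apart either.

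HDAC6 is a deacetylase of the cytoplasm whose best known substrate is α-tubulin, so its inhibition is followed by acetylated microtubules rather than directly by acetylated histones. A fully grown oocyte is close to transcriptionally silent, and the changes in its mRNA during maturation come mainly from the storage, polyadenylation and destruction of transcripts made earlier. Stored transcripts with a U-rich cytoplasmic polyadenylation element near the end of the 3′ UTR are bound by CPEB1 and gain a longer tail when meiosis resumes, whereas many others lose their tail and are degraded.

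The 3′ ends of 12 transcripts are shown here because the presence of that element sorted genes by their ratio, as described further on. Each window is 30 bases of a 3′ UTR near its annotated end, in GRCm38 coordinates, read 5′ to 3′ on the transcript strand from the GENCODE transcript set. Capitals mark the element (TTTTAT or TTTTAAT) and the polyadenylation hexamer (AATAAA or ATTAAA), both searched on the transcript strand only. The first 5 had the highest ratios among the genes that the naming rule picked whose window held an element beside a hexamer. In *Zbed3* and *Pan3* a TTTTAAT also runs into an AATAAA, and only the element and hexamer that do not overlap each other are in capitals.
Hamp, chr7:30942368-30942397, minus strand: ccttgaAATAAAgacgaTTTTATtttcaaa
Rac3, chr11:120723935-120723964, plus strand: ccttcttaTTTTATacAATAAAcattcacc
Zbed3, chr13:95337812-95337841, plus strand: tttttttttAATAAAcTTTTATttatctgc
Cks1b, chr3:89415474-89415503, minus strand: ccttgATTAAAggaagttTTTTATaatctt
Pan3, chr5:147548469-147548498, plus strand: ttTTTTAATaaagaattgcagaAATAAAct

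The next 5 had the lowest ratios among those whose 3′ UTR held a hexamer near its end and no element anywhere.
Gm813, chr16:58613689-58613718, minus strand: ttctagttctcattgatgaaaAATAAAtct
Txnl4b, chr8:109574002-109574031, plus strand: tcctccacatccctatggtggAATAAAagg
Cox7c, chr13:86044828-86044857, minus strand: cttatactagaaaaaattgtaAATAAActa
Chchd2, chr5:129881170-129881199, minus strand: ttgtgattgtgagttaaaaaaAATAAAttg
Mrpl55, chr11:59206095-59206124, plus strand: cctgacctcctgagagctgggATTAAAggt

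A further pair of windows shows the other combinations of ratio and element. A higher gene without the element was no exception, since only 10 (20.8%) of the 48 genes more than 2-fold higher had it in the last 100 bases. *Arpp19* was lower in TubA-20 and carried the element, and *Nupr1* was higher and lacked it.
Arpp19, chr9:75060277-75060306, plus strand: cgAATAAAtggatctacctaatTTTTATtg
Nupr1, chr7:126623261-126623290, minus strand: atgcccttgggtggcagcaacAATAAAtcg

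Oocyte transcripts were at high levels in TubA-20 and in MII, with all 12 markers of the oocyte present at 1 FPKM or more in every library. Their summed level was 21945 FPKM in TubA-20 and 19250 in MII. The 8 blood cell markers of the table summed to 0 FPKM in TubA-20 and 0.0347 in MII, and the 8 markers of stroma and theca cells to 0.659 and 0.673. The 16 markers of cumulus and granulosa cells summed to 18.1 and 14.97 FPKM, of which *Cyp19a1* alone gave 10.3 and 8.596. *Foxl2*, which defines granulosa cells, was listed at 0 in all 4 libraries, *Amh* at 0 in both, and *Fshr* at 0 in TubA-20 and at 0.138 FPKM in MII. *Amhr2* (0.0439 in MII, 0.651 in TubA-20) was higher in TubA-20, while *Inhba* (0.330 and 0) and *Kitl* (2.75 and 2.30) were lower. The cumulus transcripts *Ptx3* (0.555 in MII, 1.19 in TubA-20), *Tnfaip6* (0.338 and 1.57), *Has2* (0.247 and 0.355) and *Ptgs2* (0.310 and 0.408) were higher in TubA-20, all at low levels. The part of such cells in the differences was not tested.

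The deposited values of all genes summed to 627340 FPKM in TubA-20 and 568331 in MII. Read counts are not used here, so depth was judged from the steps that single fragments leave among low FPKM values. Against GV, TubA-20 stood at 0.901 times the depth, with 79.5% of the low genes near the step within 0.03 log2 of it, and MII at 1.61 times with only 22.4%. By this rough measure TubA-20 had 0.559 times the depth of MII. In TubA-20 14434 genes had a value above 0, and in MII 15358 did.

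Most transcripts were at similar levels in TubA-20 and MII, and those that were not were mainly lower in TubA-20. Among the 10199 genes with a mean of at least 1 FPKM over the 4 libraries, the median log2 ratio was 0.0037, with quartiles at −0.34 and 0.27. Of these, 5137 lay above 0 and 5062 below, and 8070 (79.1%) were within 1.5-fold. Past 2-fold, 532 of them (5.22%) were lower and 62 (0.608%) higher. Equal FPKM sums or equal *Gapdh* would shift the median by −0.12 or −0.13, and ratios here are to be read against it. The percentages are the background for the gene lists that follow, which were not matched to genes of like level or length. The share of lower genes was larger among abundant and short transcripts. It was 8.01% from 100 FPKM upwards and 12.6% in the quintile of genes with the shortest transcripts. Over the whole table, 536 genes (2.44%) were lower and 72 (0.328%) higher.

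On the scale of FPKM + 1, the excess of lower genes grew with the level of the transcript. That scale understates changes of low genes, so part of this trend is set by the measure. With a pseudocount of 0.1, 1666 genes of the whole table were lower past 2-fold in place of 536. Between 1 and 5 FPKM, 2.43% of genes were more than 2-fold lower and 1.18% higher. The share of lower genes was 5.45% between 5 and 20 FPKM, 6.79% between 20 and 100, and 8.01% from 100 upwards, where 0.654% were higher. The median went the other way, from −0.08 in the lowest of these classes to 0.16 in the highest.

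**Figure D1:**
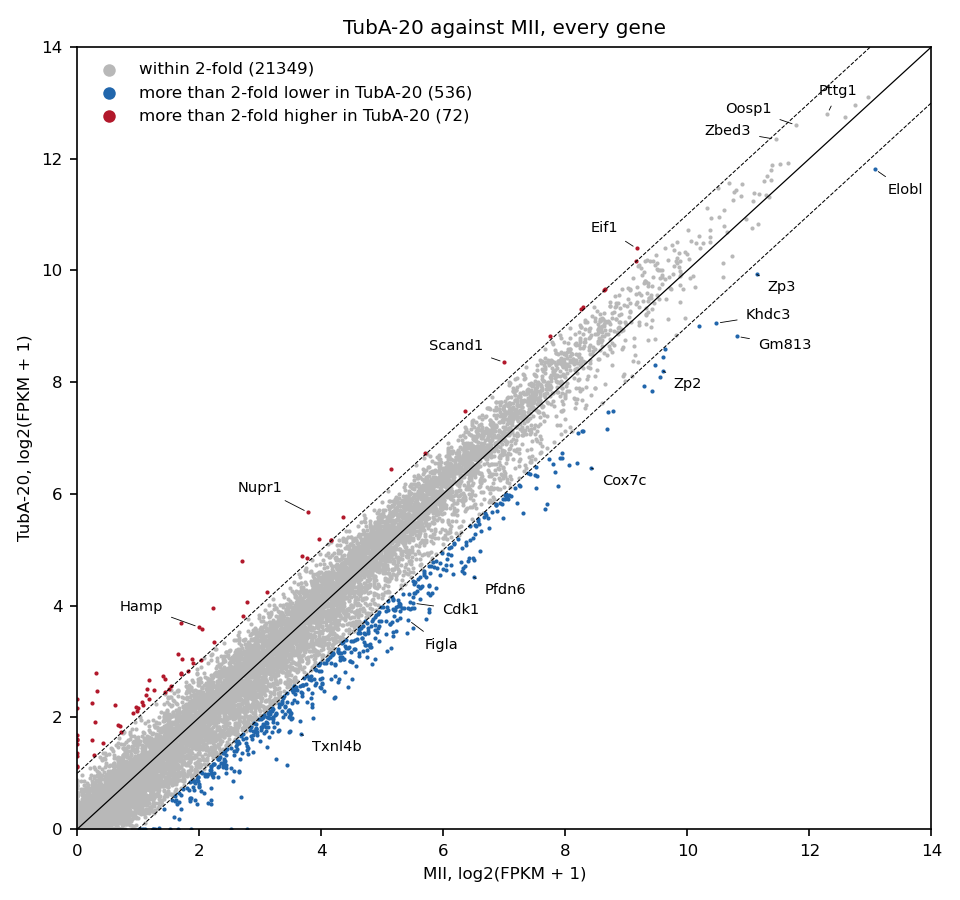
Level of every gene in TubA-20 (vertical axis) against MII (horizontal axis), both as log2 of FPKM + 1, with the diagonal solid and the 2-fold limits dashed. Blue points are the 536 genes past the lower limit and red points the 72 past the upper limit. The blue points run along the whole range of levels, while most red points lie at the low end.

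The other comparisons of the same libraries give the scale. TubA-10 against MII, which shares the MII library, had 107 expressed genes (1.05%) higher past 2-fold and 24 (0.235%) lower. Against GV, MII had 663 (6.5%) higher and 1752 (17.2%) lower. TubA-20 against GV, which shares the GV library with that comparison, had 1651 (16.2%) higher and 2439 (23.9%) lower. TubA-20 thus differed from MII in fewer genes than either did from GV. Lower genes prevailed in TubA-20 against MII and higher genes in TubA-10 against MII.

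For single genes the levels of GV, then MII, then TubA-10 and last TubA-20 are given. Among genes that reached 10 FPKM in TubA-20 or MII, the largest fall was that of *Pfdn6* (chr17:33938821-33940343), a subunit of prefoldin, which hands newly made actin and tubulin to a folding chaperonin. It stood at 485, 89.5, 93.5 and 21.7 FPKM, a log2 ratio of TubA-20 over MII of −1.99. *Pfdn6* differed more between GV and MII than between MII and TubA-20, and TubA-10 was near MII. MII and TubA-20 were parallel cultures, so such differences are not successive steps.

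*Gm813* (chr16:58613675-58616978) was at 3506, 1798, 1881 and 451 FPKM, a ratio of −1.99. It was among the most abundant transcripts of the GV oocyte, and TubA-20 held the least. *Txnl4b*, which encodes a protein related to the spliceosome subunit DIM1, was at 12.1, 11.7, 7.90 and 2.23 FPKM (−1.98). Here GV and MII did not differ, so that TubA-20 alone was clearly low. *Cox7c*, a subunit of cytochrome c oxidase, was at 528, 343, 474 and 87.2 FPKM (−1.96), with the other 3 libraries well above TubA-20.

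*Chchd2*, which encodes a mitochondrial protein that also acts on respiratory genes, was at 576, 203, 433 and 51.9 FPKM (−1.94). TubA-10 lay between GV and MII, and TubA-20 lay below all. *Znrd1*, a subunit of RNA polymerase I, had the same order at 213, 32.6, 75.3 and 8.10 FPKM (−1.89). The rest of the 12 largest falls were *Use1*, *Mrpl55*, *Snrpd2*, *Pdlim2*, *Pdcd2* and *Tubb2b*, with ratios from −1.95 to −1.87. In each of the 12, TubA-20 was the lowest of the 4 libraries and GV the highest, and TubA-10 lay at or above MII in all but *Txnl4b* and *Snrpd2*.

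**Figure D2:**
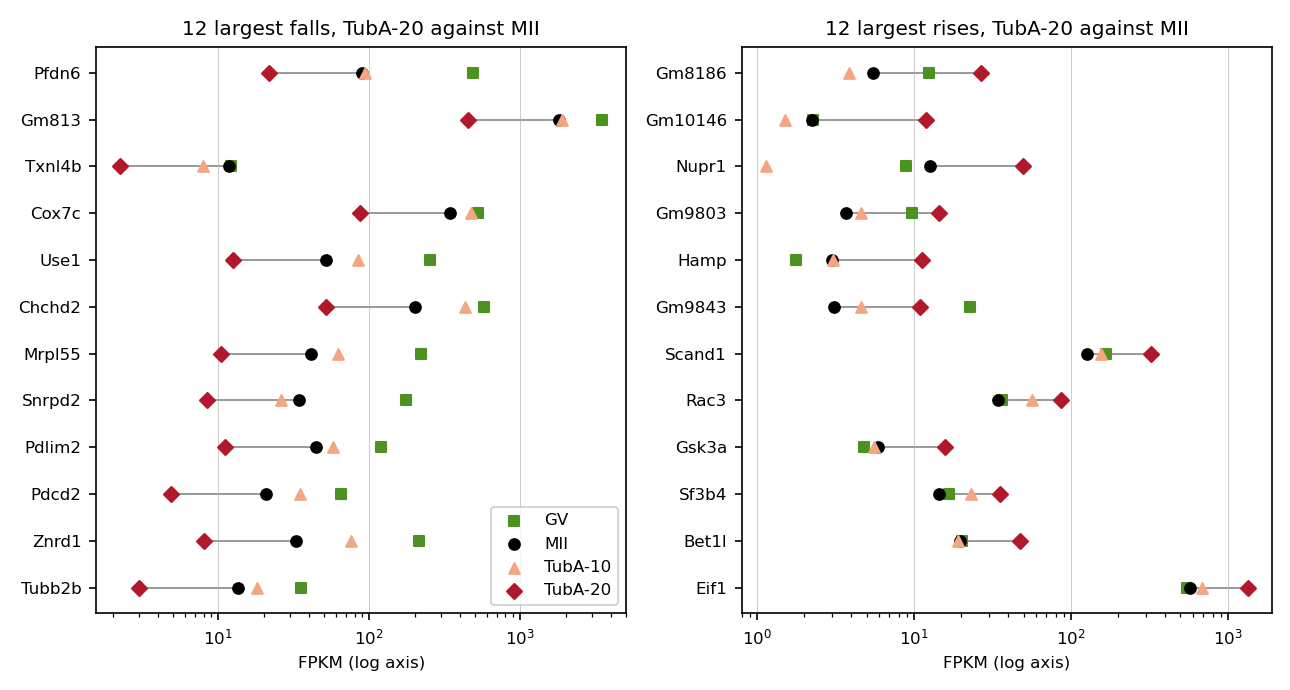
FPKM (log axis) of the 12 genes with the largest falls (left) and the 12 with the largest rises (right) of TubA-20 against MII, 1 row per gene and 1 point per library. The grey line joins MII (black circle) to TubA-20 (red diamond). TubA-20 is the leftmost point of every row on the left, and GV the rightmost, while on the right TubA-20 is the rightmost point except for *Gm9843*, where GV is higher.

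The rises were fewer and mostly started from lower levels. Under the same limit of 10 FPKM, *Gm8186* (chr17:26098991-26099221) and *Gm10146* (chr10:78393320-78393628) had the highest ratios, 2.09 and 1.99, followed further down by *Gm9843* at 1.54. All 3 are processed pseudogenes, whose reads may belong to near-identical copies elsewhere, so these values are uncertain. Of the 14 processed pseudogenes with a mean of at least 1 FPKM, 6 were more than 2-fold higher, 1 was lower, and the median ratio was 0.70.

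*Nupr1* (chr7:126623249-126630861), a small stress-induced regulator of transcription, was at 8.88, 12.8, 1.14 and 49.9 FPKM, a ratio of 1.89. It was highest in TubA-20 and lowest in TubA-10. *Hamp*, which encodes the iron hormone hepcidin, was at 1.78, 2.99, 3.04 and 11.2 FPKM (1.62), with TubA-20 above the other 3, which lay close together. *Gm9803* was at 9.73, 3.68, 4.64 and 14.5 FPKM (1.73).

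*Scand1*, which encodes a small SCAN domain protein, was at 168, 127, 156 and 327 FPKM (1.36). *Rac3*, a small GTPase, was at 36.4, 34.4, 56.7 and 86.3 FPKM (1.30), and here TubA-10 was also above GV and MII. *Gsk3a*, a kinase of glycogen and Wnt signalling, was at 4.80, 5.88, 5.58 and 15.8 FPKM (1.28). TubA-20 stood apart from the other 3 libraries in *Scand1* and *Gsk3a*. The splicing factor subunit *Sf3b4* (1.23), the SNARE gene *Bet1l* (1.23) and *Eif1* (1.22) completed the 12 largest rises. *Eif1*, which encodes a factor for choosing the start codon, was by far the most abundant of the 12, at 554, 575, 687 and 1344 FPKM.

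In FPKM itself, the largest losses were those of major oocyte transcripts. *Elobl*, related to the gene of elongin B, was at 7797, 8620.1, 10098 and 3597 FPKM (−1.26), so that the most abundant of these transcripts in MII fell past 2-fold. *Gm813*, *Zp3*, *Khdc3* and the ubiquitin gene *Ubb* were the other 4. *Ubb* was at 1932, 1167, 1857 and 515 FPKM (−1.18). Its TubA-10 value was close to that of GV.

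The largest gains were *Oosp1*, *Zbed3*, *Pttg1*, *Hsp90aa1* and *Med27*, all within 2-fold. *Oosp1*, an oocyte-secreted protein gene, was at 2699.9, 3521, 3198 and 6213 FPKM (0.82). *Zbed3*, whose product belongs to the maternal complex under the oocyte surface, was at 1811, 2792, 2453 and 5213 FPKM (0.90). *Med27*, a Mediator subunit, was at 1213, 1454, 1649 and 2846 FPKM (0.97). For all 3, TubA-20 was far above the other libraries, which lay closer to each other.

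Genes that define the oocyte did not move together. Of the 21 oocyte and maternal effect genes with a mean of at least 1 FPKM, 5 (23.8%) were lower in TubA-20 by more than 2-fold and 0 higher, 15 lay below 0, and the median was −0.25. The 5 were *Figla*, *Khdc3*, *Zp2*, *Zp3* and *Padi6*, of which *Zp2* and *Padi6* were named after their values were seen.

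*Figla*, the transcription factor that switches on the genes of the zona pellucida, was at 90.5, 41.9, 70.2 and 12.4 FPKM (−1.68). The genes of the zona, the glycoprotein coat around the oocyte, were lower too. *Zp2*, the sperm-binding component, was at 753, 778, 769.5 and 293 FPKM (−1.41), and *Zp3* at 2454, 2256, 2151 and 973 FPKM (−1.21). For both, the GV, MII and TubA-10 libraries were alike and TubA-20 alone was low. The third gene, *Zp1*, was at 910.5, 651, 553 and 429 FPKM (−0.60), short of 2-fold.

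Members of the subcortical maternal complex, which the early embryo needs, differed among themselves. *Khdc3* was at 1473, 1422, 2311 and 531 FPKM (−1.42), highest in TubA-10 and lowest in TubA-20. *Padi6* was at 833, 776, 987 and 350.3 FPKM (−1.14) in the same order of libraries. *Tle6* (−0.56) and *Nlrp5* (−0.33) were lower by less, and *Ooep* was at 0.06, these 3 also named after their values were seen.

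Of the other members, *Oosp1* and *Gdf9* had the highest ratios. *Gdf9*, a growth factor that acts on cumulus cells, was at 1774, 2928, 2275 and 3822 FPKM (0.38). The linker histone gene *H1foo* (0.14) and *Dppa3* (0.21), the latter at 5806, 6858, 8610.4 and 7959.7 FPKM, were slightly above MII, while *Bmp15*, the partner of *Gdf9* (−0.25), *Nobox* (−0.63) and *Nlrp14* (−0.71) were below it. These 5 genes were also named after their values were seen.

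**Figure D3:**
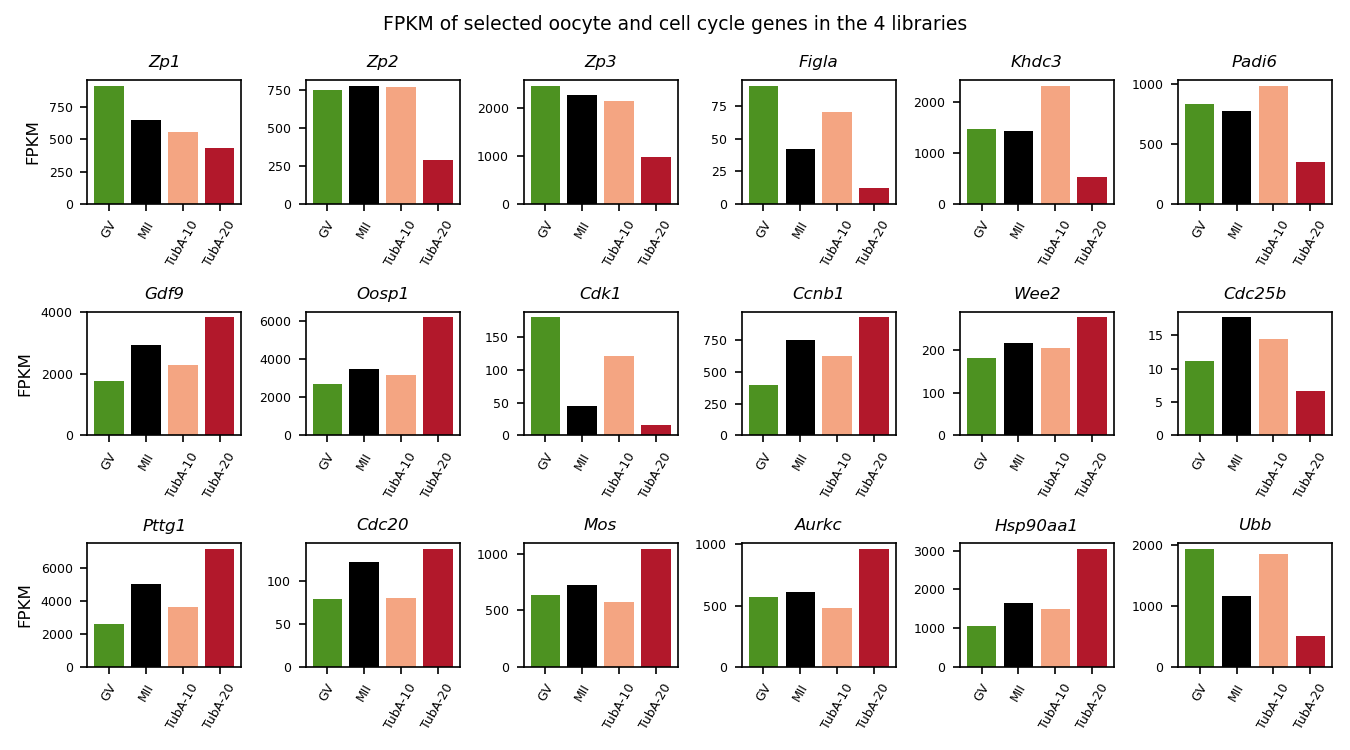
FPKM of 18 oocyte and cell cycle genes, chosen after their values were seen, in the 4 libraries, 1 bar per library and 1 panel per gene, each with its own axis from 0. In the upper row TubA-20 is the lowest bar for all 6 genes, whereas for *Gdf9*, *Oosp1*, *Ccnb1*, *Wee2*, *Pttg1*, *Cdc20*, *Mos*, *Aurkc* and *Hsp90aa1* it is the highest.

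MPF, the kinase of CDK1 and cyclin B, drives the resumption of meiosis. Of the 17 MPF regulators, 4 (23.5%) were lower in TubA-20 by more than 2-fold, 0 were higher, 9 lay above 0 and the median was 0.09, which turned to −0.07 with equal *Gapdh* and −0.05 with FPKM sums made equal. The kinase subunit *Cdk1* was at 179, 44.2, 121 and 15.5 FPKM (−1.45), and TubA-10 was closer to GV than to MII. The phosphatases that activate it were lower in part. *Cdc25b*, the form needed for meiotic resumption, was at 11.2, 17.7, 14.5 and 6.62 FPKM (−1.30) and *Cdc25c* at 7.53, 4.34, 8.12 and 1.62 FPKM (−1.02), while *Cdc25a* was at −0.03 and turned to 0.0025 with equal upper quartiles.

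The fourth lower gene was *Arpp19*, whose product protects MPF by blocking a phosphatase, at 598, 167, 203 and 81.5 FPKM (−1.02, and −0.99 with equal upper quartiles). Its paralogue *Ensa* was at −0.17, and *Mastl*, the kinase that activates both products, at 0.23.

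Cyclins and their partners lay mostly above MII. *Ccnb1* was at 394, 749, 626 and 927 FPKM (0.31), *Ccnb2* at a ratio of 0.15 (−0.0088 with equal *Gapdh*), *Ccnb3* at −0.23 and *Ccna2* at 0.65. TubA-20 held the most *Ccnb1* and GV the least. *Cks1b*, a small subunit of cyclin-dependent kinases, was at 490.3, 589, 629 and 1089.6 FPKM (0.89) and *Cks2* at a ratio of 0.24. Of the inhibitory kinases, *Wee2*, the oocyte form, was at 181, 217, 205 and 278 FPKM (0.36), *Pkmyt1* at 0.59 and *Wee1* at −0.26. *Plk1* was at 0.09, and at −0.07 with equal *Gapdh*. None of these passed 2-fold.

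The arm that holds the oocyte at the second metaphase changed little. Of 8 expressed genes of the Mos-MAPK pathway and Emi2, 0 passed 2-fold and the median was −0.12. *Mos*, which starts the cascade, was at 635, 726, 571 and 1041 FPKM (0.52), the kinase gene *Map2k1* at a ratio of 0.51, and *Mapk3* at −0.51. TubA-20 thus held the most *Mos* of the 4 libraries.

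The anaphase promoting complex (APC/C) and the spindle checkpoint, which time the separation of chromosomes, had a median of −0.0031 over 27 genes, with 1 lower past 2-fold. That gene was *Fzr1*, the activator that keeps the GV oocyte arrested, at 63.6, 50.3, 70.2 and 23.1 FPKM (−1.09). Securin (*Pttg1*), which the complex destroys at anaphase, was at 2606, 5029, 3645 and 7145 FPKM (0.51). Its ubiquitin-conjugating partner *Ube2s* was at 457, 711, 685 and 1095 FPKM (0.62). For *Pttg1* and *Ube2s* the TubA-20 level was the highest and the GV level the lowest.

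Among 29 genes of the spindle, kinetochore and cytokinesis, the median was −0.05 and 1 was lower past 2-fold. That was the kinetochore gene *Spc24*, at 105, 67.0, 71.3 and 31.6 FPKM (−1.06). *Aurkc*, the Aurora kinase typical of germ cells, was at 569, 609, 479.9 and 963 FPKM (0.66). Of 29 genes for actin and spindle migration 0 passed 2-fold, with a median of −0.0027 and a range from *Arpc1a* (−0.97) to *Arpc2* (0.88), both subunits of the actin-branching Arp2/3 complex. Over 22 cohesin and condensin genes the median was 0.02 and *Stag3* was higher past 2-fold, from 0.340 to 1.89 FPKM, levels too low to carry weight.

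HDAC6 is the target of TubA, and its own transcript was low. *Hdac6* was at 4.44, 3.74, 2.998 and 1.86 FPKM (−0.73), lowest in TubA-20. It was short of 2-fold on the scale of FPKM + 1 and passed it with a pseudocount of 0.01 (−1.01). Of the 14 HDAC and sirtuin genes with a mean of at least 1 FPKM, 0 passed 2-fold, 11 lay below 0 and the median was −0.33. With a pseudocount of 0.01 *Hdac6* and *Sirt2* (−1.08) passed it. The other class I and II members lay between *Hdac8* (−0.44) and *Hdac4* (0.26), among them *Hdac1* (−0.14), *Hdac2* (0.20), *Hdac3* (−0.33) and *Hdac9* (−0.03).

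The sirtuins, which use NAD as a cofactor, ran from *Sirt2* (−0.80), the other cytoplasmic tubulin deacetylase, through *Sirt5* (−0.58), *Sirt7* (−0.54), *Sirt3* (−0.47), *Sirt6* (−0.33) and *Sirt1* (−0.30) to *Sirt4* (0.32). *Hdac5*, *Hdac7*, *Hdac10* and *Hdac11* had a mean under 1 FPKM, where the ratio says little. Their ratios were 0.06, 0.23, −0.10 and 0.09. The activity of these enzymes was not measured here.

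Tubulin, the main substrate of HDAC6, had lower transcripts in TubA-20 for most of its α and β forms. Over 15 genes of tubulins and tubulin acetylation the median was −0.76, 4 (26.7%) were lower past 2-fold and 0 higher. *Tubb2b* was at 35.1, 13.6, 18.05 and 2.98 FPKM (−1.87), *Tuba4a* at 182, 29.6, 40.1 and 13.4 FPKM (−1.08), *Tubb5* at a ratio of −1.05 and *Tubb6* at −1.02. On the log2 scale *Tuba4a* differed more between GV and MII than between MII and TubA-20, and *Tubb2b* the other way round.

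Not every tubulin was lower. *Atat1*, the acetyltransferase that opposes HDAC6 on tubulin, was at 20.8, 22.2, 26.6 and 35.5 FPKM (0.66), its highest level in TubA-20. The centrosomal γ-tubulin genes *Tubg1* (0.28) and *Tubg2* (0.42) were also above 0, as were *Tubb3* (0.29) and *Tuba1c* (0.23). *Tubb5*, *Tubb6*, *Tubg1*, *Tubb3* and *Tuba1c* were named after their values were seen. Tubulin genes share near-identical coding sequence, so reads could be split among them and each single value is uncertain.

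Of 18 genes for the folding of tubulin and actin, 2 (11.1%) were lower past 2-fold and 13 lay below 0, with a median of −0.17. *Pfdn6*, given above, and *Tbcc*, a cofactor that readies tubulin dimers, were the 2, the latter at 21.2, 14.7, 18.2 and 4.86 FPKM (−1.43). The chaperonin subunit *Cct8* (0.45) and the prefoldin subunit *Pfdn1* (0.24) had the highest ratios of the list.

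The 17 genes of ATP synthase, which makes ATP from the proton gradient of mitochondria, had a median of −0.88, the lowest of the 29 lists, with 15 below 0 and 7 (41.2%) lower past 2-fold. *Atp5j* was at 233, 80.7, 101 and 25.2 FPKM (−1.64) and *Atp5j2* at 1418, 289.7, 272 and 92.5 FPKM (−1.64), neither of them a catalytic subunit. In *Atp5j2* MII and TubA-10 lay together between GV and TubA-20. The catalytic subunit *Atp5b* was at 148, 214, 258 and 274 FPKM (0.35) and *Atp5c1* of the central stalk at a ratio of 0.22. Those 2 alone of the 17 lay above 0.

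The 37 nuclear genes of respiratory complex I had a median of −0.71, with 29 below 0 and 13 (35.1%) lower past 2-fold. The lowest were *Ndufv2*, at 209.9, 77.5, 109 and 26.6 FPKM (−1.51), and *Ndufb7*, at 419, 47.9, 53.5 and 16.3 FPKM (−1.50). *Ndufb7* differed more between GV and MII than between MII and TubA-20. *Ndufa4* (0.77) and *Ndufa10* (0.58) were the highest, although the product of *Ndufa4* is now placed in cytochrome c oxidase.

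Complexes II to IV were mixed, with a median of −0.28 over 24 genes, 5 (20.8%) lower past 2-fold and 1 higher. *Cox7b* was at 78.5, 33.9, 49.4 and 11.8 FPKM (−1.45), next to *Cox7c* above. The higher gene was *Cox8a*, a further subunit of cytochrome c oxidase, at 341, 573, 602 and 1154 FPKM (1.01). It was just past the limit, and short of it with equal FPKM sums (0.87) or equal *Gapdh* (0.85). *Uqcrc2*, a core subunit of complex III, was at 0.48.

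Genes that mitochondria encode themselves were listed at 0 or at low values. Of the 13 in the table, 8 were listed at 0 in all 4 libraries and 2 had a mean of at least 1 FPKM. *mt-Co3* was at 0.110, 0.232, 0.0697 and 5.92 FPKM (2.49), and *mt-Nd2* at 1.27, 3.06, 1.96 and 6.44 FPKM (0.87). *mt-Co3* reached that mean only through its value in TubA-20. *mt-Nd3* was listed at 0 in 3 libraries and at 2.204 in TubA-20. With most members listed at 0, neither a level in the oocyte nor a direction is read from this list. Whether reads of these genes were lost in mapping or counting was not tested.

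The 78 genes of the mitochondrial ribosome had a median of −0.45, with 58 below 0 and 12 (15.4%) lower past 2-fold. *Mrpl55* was at 222, 41.4, 62.6 and 10.3 FPKM (−1.90) and *Mrpl33* at 171, 53.3, 75.3 and 14.4 FPKM (−1.82). At the other end, *Mrpl53* was at 219, 95.3, 131 and 165 FPKM (0.79) and *Mrps5* at a ratio of 0.75. Import of proteins into mitochondria had a median of −0.55 over 22 genes, with 4 (18.2%) lower past 2-fold. *Tomm40*, the pore of the outer membrane, was at 72.8, 25.8, 73.3 and 7.48 FPKM (−1.66), and *Tomm20*, its receptor, at a ratio of −1.34. TubA-10 and GV held the same level of *Tomm40*.

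**Figure D4:**
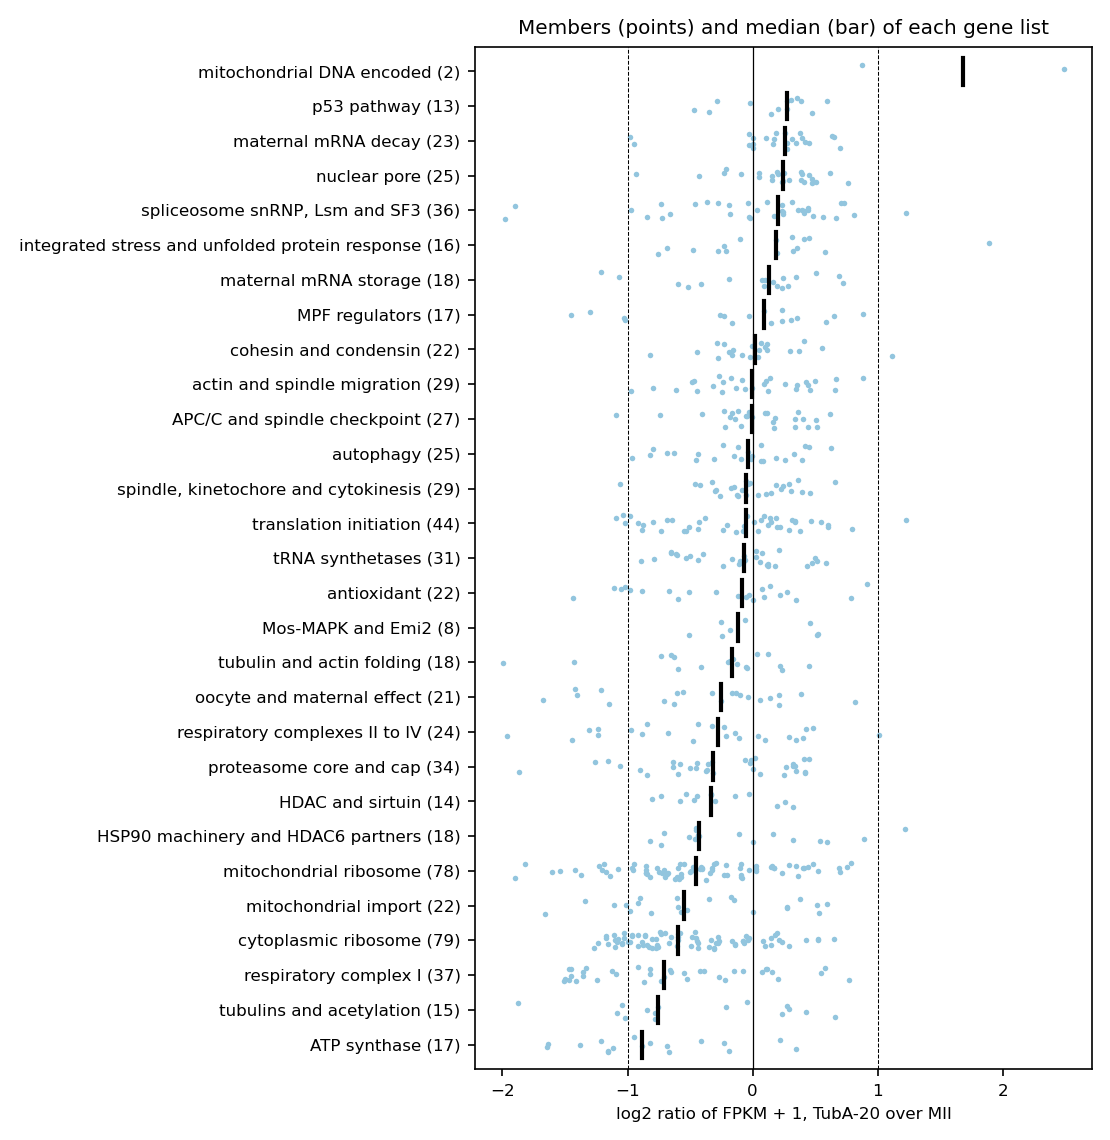
Log2 ratio of TubA-20 over MII (horizontal axis) for the expressed members (points) of each of 29 gene lists, with the median as a black bar, the number of members in brackets and the 2-fold limits dashed. The lowest medians are those of ATP synthase (−0.88), tubulins (−0.76), respiratory complex I (−0.71) and the cytoplasmic ribosome (−0.60), while the p53 pathway (0.27), maternal mRNA decay (0.26) and nuclear pore (0.24) lie above 0.

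The machinery of protein synthesis divided by its parts. The 79 genes of the cytoplasmic ribosome had a median of −0.60, with 66 below 0 and 14 (17.7%) lower past 2-fold. *Rps13* was at 1091, 222, 403 and 91.7 FPKM (−1.27) and *Rpsa* at 120.4, 35.1, 56.2 and 14.3 FPKM (−1.23). Both differed more between GV and MII than between MII and TubA-20. *Rps15a* had the highest ratio of the list (0.65). Ribosomal protein genes have many near-identical pseudogenes, so their values are uncertain one by one.

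Translation initiation factors had a median of −0.05 over 44 genes, with 3 (6.82%) lower past 2-fold and *Eif1* higher. *Eif3g* was at 498, 121, 188 and 56.1 FPKM (−1.09) and *Eif3i*, of the same complex, at 230.0, 301, 298 and 522 FPKM (0.79). The 31 tRNA synthetase genes had a median of −0.07 and 0 past 2-fold.

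Protein breakdown by the proteasome had a median of −0.32 over 34 genes, with 4 (11.8%) lower past 2-fold. *Psmb7* was at 273, 53.2, 108 and 13.8 FPKM (−1.87) and *Psmb5* at 80.5, 37.1, 46.4 and 14.9 FPKM (−1.26), both catalytic subunits of the core. *Psma7* (0.45) and *Psmd11* (0.42) lay above 0. Autophagy had a median of −0.04 over 25 genes, with 0 past 2-fold.

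Genes for the decay of maternal mRNA lay mostly above 0. The median over all genes was itself 0.07 between 20 and 100 FPKM and 0.16 from 100 upwards. Of 23 genes for maternal mRNA decay 19 lay above 0, 0 passed 2-fold, and the median was 0.26. *Pan3*, of a deadenylase complex, was at 64.8, 102, 67.6 and 166 FPKM (0.70), and *Cnot6*, of the CCR4-NOT deadenylase, at 11.9, 19.9, 16.1 and 31.7 FPKM (0.65). TubA-20 was highest for both. *Cnot9* and *Cnot10* of the same complex were at −0.95 and −0.98, and *Btg4*, the adaptor that recruits it in oocytes, was at 1808, 2589, 3031 and 2536 FPKM (−0.03), named after its values were seen. In *Btg4* TubA-20 was as MII.

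Storage and polyadenylation had a median of 0.13 over 18 genes (−0.02 with equal *Gapdh*), with 2 (11.1%) lower past 2-fold. These were *Pabpc1l*, the poly(A)-binding protein of the oocyte, at 69.1, 51.9, 69.9 and 21.8 FPKM (−1.22), and *Zar1l* at 722, 125, 159.7 and 59.2 FPKM (−1.07). *Cpeb1*, the protein that reads the element shown above, was at 185, 127, 173 and 83.8 FPKM (−0.60), named after its values were seen. *Tent2*, a cytoplasmic poly(A) polymerase, was at 33.2, 53.1, 41.9 and 88.4 FPKM (0.72), and *Lsm14b*, of the stored messenger particles, at a ratio of 0.69. Of its relatives, *Cpeb3* was at 0.25 and *Cpeb4* at 0.07, so the family lay on both sides of 0.

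Spliceosome genes had a median of 0.20 over 36 genes, with 2 lower and 1 higher past 2-fold. The spread was wide here, from *Txnl4b* and *Snrpd2* (−1.90) to *Snrpg* (0.81) and *Sf3b4*. The 25 nuclear pore genes had a median of 0.24, with 20 above 0 and 0 past 2-fold, led by *Nup37* (0.76) and *Nup62* (0.62).

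Stress genes mostly stayed within 2-fold. Over 16 genes of the integrated stress and unfolded protein responses the median was 0.19, and *Nupr1* alone passed 2-fold. *Atf4*, the transcription factor at the centre of the response, was at 97.0, 64.1, 96.1 and 37.6 FPKM (−0.75), and its target *Ddit3* at 122.6, 22.7, 25.2 and 13.7 FPKM (−0.69). *Ddit3* differed more between GV and MII than between MII and TubA-20. The 13 genes of the p53 pathway leaned upward, with a median of 0.27, 9 above 0 and 0 past 2-fold. *Trp53* was at 29.0, 49.0, 37.7 and 68.5 FPKM (0.47) and its target *Cdkn1a* at 2.39, 4.13, 3.49 and 6.75 FPKM (0.59).

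HSP90, which HDAC6 deacetylates, and its co-chaperones had a median of −0.43 over 18 genes. *Hsp90aa1*, the inducible form, was at 1069, 1643, 1504 and 3046 FPKM (0.89). The small heat shock gene *Hspb1* was at 10.9, 11.8, 15.1 and 28.7 FPKM (1.22), the only member past 2-fold. Both were highest in TubA-20. Co-chaperones such as *Fkbp4* (−0.82) and *Dnajb1* (−0.73) were lower.

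Antioxidant genes had a median of −0.08 over 22 genes, with 4 (18.2%) lower past 2-fold and 0 higher. The mitochondrial members *Glrx5*, at 640.2, 226, 338 and 83.1 FPKM (−1.43), and *Prdx3*, at 29.7, 12.9, 35.6 and 5.46 FPKM (−1.11), were the lowest. The cytosolic *Prdx1*, at 983, 1277, 1313 and 2210.0 FPKM (0.79), and *Txn1*, at 75.5, 25.01, 48.4 and 48.0 FPKM (0.91), were the highest. Members of the same family thus lay on both sides of 0.

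Features of the transcript sorted genes across the lists. Among expressed genes divided into quintiles by the length of the longest transcript, the median ratio was −0.15 in the shortest quintile (up to 1846 bases) and −0.02, 0.02, 0.03 and 0.05 in the others. The share more than 2-fold lower went from 12.6% in the shortest to 1.23% in the longest, and the share higher from 2.501% to 0%. The 523 lower genes with a 3′ UTR had a median length of the coding transcript of 1607 bases, the 48 higher genes 1160, and all 10034 such genes 2877.5. Short transcripts were thus more frequent among both. By GC content the medians went from 0.08 in the quintile with the lowest content to −0.16 in the quintile with the highest.

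The U-rich element shown in the windows went with higher ratios. It was found in the last 100 bases of the 3′ UTR in 2000 of the 10034 genes (19.9%), whose median ratio was 0.14, against −0.04 in the 8034 without. Anywhere in the 3′ UTR it was found in 6038 genes (60.2%), with a median of 0.08 against −0.18 in the other 3996. By the number of elements in the 3′ UTR the medians were −0.18 with 0, 0.05 with 1, 0.08 with 2, 0.09 with 3, 0.13 with 4 and 0.10 with 5 or more.

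Of the 523 lower genes past 2-fold, 43 (8.22%) had the element in the last 100 bases. Of the 48 genes more than 2-fold higher, 10 (20.8%) had it, close to the 19.9% of all genes. The element thus was rarer among lower genes than among all genes and about as frequent among higher ones. Among the 12 largest falls it was present there in *Tubb2b* alone, and among the 12 largest rises in *Hamp* and *Rac3* alone, with no 3′ UTR annotated for the 3 pseudogenes. Of the 17 MPF regulators, *Arpp19*, *Ccnb3*, *Cks1b*, *Cks2* and *Wee2* had it in the last 100 bases, on both sides of 0. The others, *Cdk1*, *Ccnb1* and *Ccna2* among them, did not have it there. Further from the end of the 3′ UTR, *Cdk1* had 2 elements, *Ccnb1* 4 and *Ccna2* 8.

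Length and element were related, because the 3′ UTR of genes without any element had a median of 371 bases and of those with it 1532. Within each quintile of coding transcript length, the median was still higher with the element in the last 100 bases. In the shortest quintile (311 to 1596 bases) it was 0.26 over 293 genes with the element and −0.25 over 1715 without, and 5.46% against 14.2% were lower past 2-fold. The medians were 0.21 and −0.08 in the next quintile, then 0.18 and −0.04, 0.11 and 0.03, and in the longest quintile 0.06 and 0.04, where they hardly differed.

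**Figure D5:**
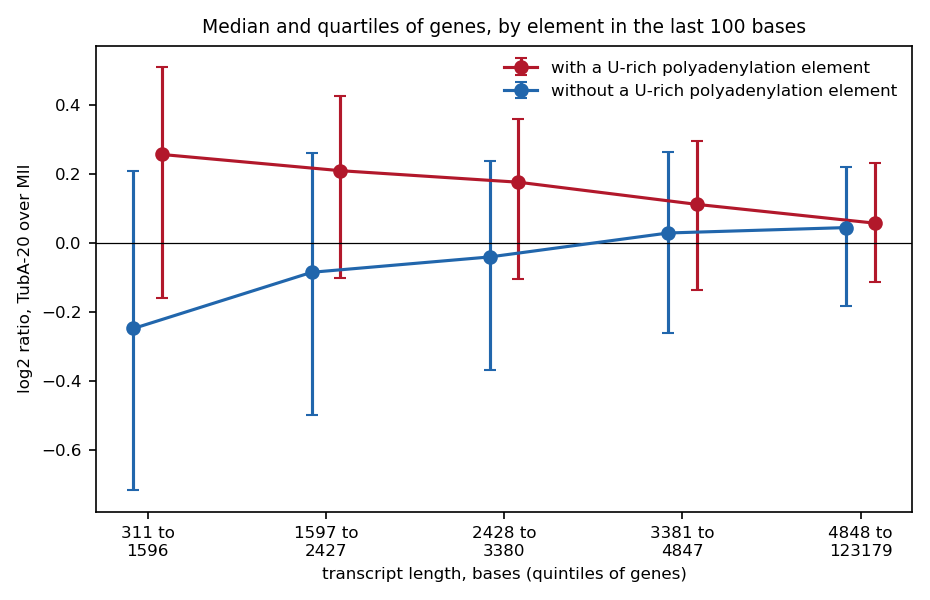
Median log2 ratio of TubA-20 over MII (points) with the quartiles (bars) for genes with (red) and without (blue) the U-rich element in the last 100 bases of the 3′ UTR, by quintiles of transcript length in bases. The red point is above the blue point in each quintile, by most in the shortest (0.26 against −0.25) and by least in the longest (0.06 against 0.04), and the quartile ranges overlap throughout.

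Base composition near the end moved with the ratio as well. In quintiles by the GC content of the last 100 bases, genes with the element had medians from 0.13 to 0.17, while genes without it went from 0.05 in the quintile with the lowest GC content to −0.21 in the highest. The same letters read backwards (TATTTT or TAATTTT) were used to see what any AU-rich stretch gives. Among genes without the element, the 1193 with the reversed letters had a median of 0.05 and the 6841 without either −0.06. The 1088 genes with the element and without the reversed letters had a median of 0.13. With TTTTAT alone, which cannot run into an AATAAA but can run into an ATTAAA, the medians were 0.15 over 1543 genes and −0.02 over 8491.

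Genes are not replicates and share libraries, so these medians describe this pair of libraries only. The same split of genes by the element in the last 100 bases gave medians of −0.11 and 0.05 for TubA-10 against MII, which shares the MII library, and of 0.42 and −0.03 for MII against GV, with the element first in each pair.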

How the data were processed

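RNA of pooled mouse oocytes was measured in 4 libraries (GV, MII, TubA-10 and TubA-20), selected with oligo(dT) and made with a strand-specific kit. The labels name TRIzol for the extraction and the study's methods another kit. The authors deposited 1 table of FPKM values. The submitters' processing notes name STAR 2.5.0, Cufflinks, Cuffdiff 2.2.1 and mm10. Columns were mapped to libraries by title. Of 21959 entries, 21794 were given a symbol and a position from GENCODE annotation of GRCm38 by Ensembl identifier, and 165 kept their identifier. Entries with the same symbol were added up, which left 21957 genes.

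The value compared is log2 of the ratio of FPKM + 1, TubA-20 over MII, which understates changes of low genes. Genes past 2-fold were counted over the table and over genes with a mean of at least 1 FPKM in the 4 libraries. With 1 library per condition no test was run. Depth was estimated from steps among low FPKM values, and 3′ UTR features were taken from 1 coding transcript per gene.

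Genes were named if they were *Hdac6*, among the 12 largest rises or falls with at least 10 FPKM in either library, among the 5 largest gains or losses in FPKM, among the 2 highest or 2 lowest of a list with at least 5 FPKM in either library, or members of the HDAC and sirtuin or the MPF regulator list. Members and the 29 lists were chosen with earlier results of these data known. Exceptions are marked in the text, except *Zp1*, *Cpeb3*, *Cpeb4*, *Stag3* and *mt-Nd3*, which the rule did not pick either. Not every gene the rule picked is reported here. Alternatives were pseudocounts of 0.1 and 0.01, a mean of at least 5 FPKM, 4 scalings of the libraries (median ratio set to 0, equal FPKM sums, equal upper quartiles, equal *Gapdh*), a 3-fold limit, every list member of the table, and the highest entry of a shared symbol. The window of 100 bases, the reversed letters, TTTTAT alone and protein-coding genes alone were added after the data were seen. The scripts were tested on simulated data. Python 3.11.15 with numpy 2.4.6, pandas 2.3.3 and matplotlib 3.10.9 was used.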

Additional observations from a re-analysis of the deposited data

Results flagged for a closer look

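Of the genes named by the rule, 7 were more than 2-fold from MII in opposite directions in TubA-20 and TubA-10. The difference between the comparisons was not tested, both share the MII library, and each rests on 1 library per side. Against MII, *Chchd2* was at −1.94 in TubA-20 and 1.09 in TubA-10 on the log2 scale. The polymerase subunit gene *Znrd1* was at −1.89 and 1.18, and the proteasome gene *Psmb7* at −1.87 and 1.004. The import pore gene *Tomm40* was at −1.66 and 1.47, *Cdk1* at −1.45 and 1.43, and the mitochondrial peroxidase gene *Prdx3* at −1.11 and 1.40. These 6 genes were lower in TubA-20 and higher in TubA-10. *Nupr1* had the reverse, with 1.89 in TubA-20 and −2.69 in TubA-10. Opposite signs were not confined to these genes. The lists with the lowest medians in TubA-20 had medians above 0 in TubA-10 against MII. These were 0.30 for ATP synthase, 0.33 for tubulins, 0.31 for respiratory complex I and 0.29 for the cytoplasmic ribosome. Not all lists did so, as HSP90 was at −0.43 in TubA-20 and −0.04 in TubA-10, and the spliceosome at 0.20 and 0.11.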

How the results depend on the processing

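The pseudocount and the threshold moved the counts most. With pseudocounts of 0.1 and 0.01, 571 and 1174 genes were higher past 2-fold and 1666 and 2952 lower, so that higher genes made up 25.5% and 28.5% of those past the limit in place of 11.8%. The added genes have low FPKM. A 3-fold limit left 15 higher and 61 lower genes. A mean of at least 5 FPKM left 26 higher genes, where fewer genes were compared, and 458 lower. The scalings gave between 49 and 77 higher and between 503 and 767 lower genes. The median of the tubulin list was −0.13 with every member of the table, which adds genes at or near 0. The median of the genes encoded by mitochondrial DNA was 2.62 and 2.84 with pseudocounts of 0.1 and 0.01 and 0 with every member, most of which are listed at 0. Of the 29 list medians, 27 stayed within 0.25 under all alternatives. Of the 162 genes named by the rule 58 passed 2-fold and 56 of these did so under all alternatives, the exceptions being *Arpp19* and *Cox8a*. *Hdac6* and *Sirt2* passed 2-fold with a pseudocount of 0.01, at −1.01 and −1.08.

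No paired analysis was possible because each condition had 1 library. For the same reason leaving out a library was not run, and no difference was set against a spread between replicates. TubA-20 had about 0.559 times the estimated depth of MII, an estimate that is unsharp for MII, and low genes rest on few fragments. FPKM are relative to the total of each library and do not show a change of total mRNA per oocyte.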
